A study of Mus musculus with 70 samples.

Results

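The comparison set the adult mouse hypothalamus against every other adult brain region of an atlas of tissue punches. The hypothalamic side held the 14 libraries of 5 regions, chosen by the region in the sample labels: the arcuate nucleus (ARH, 3 libraries), the ventromedial nucleus (VMH, 2), the dorsomedial nucleus (DMH, 4), the paraventricular nucleus (PVH, 2) and the lateral hypothalamic area (LHA, 3). They were 14 of the 70 libraries of the series and 14 of its 57 adult libraries. The other 43 adult libraries came from 13 regions: the frontal pole (FRP), anterior cingulate area (ACA) and entorhinal area (ENT) of the cortex, the nucleus accumbens (ACB), the ventral tegmental area (VTA), the parabrachial nucleus (PB), nucleus of the solitary tract (NTS) and dorsal vagal complex (DVC) of the hindbrain, and 5 cerebellar regions (CENT2, CUL4-5, UVU, FL and CBN). The 9 embryonic and 4 stem cell libraries of the series entered no comparison between groups.

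All adult libraries came from male C57BL/6NTac mice at P56 with no treatment, and the labels separate the groups by brain region only. Each region was punched from frozen coronal sections, and the punches of 3 or 4 mice were pooled in a library, apart from 1 ACB library made from 1 mouse. The same mice gave punches to several regions, so libraries of different regions are not from separate animals. A pool hides the spread between mice, and the p-values below measure only the spread between pools or between regions. In a punch, fewer cells of a type and less RNA per cell cannot be told apart.

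The hypothalamus lies at the base of the forebrain around the third ventricle. Its nuclei release peptide hormones into the pituitary circulation or use them as transmitters, and its neurons read blood signals such as leptin, insulin and steroids. ARH holds the POMC and AgRP neurons of feeding control, PVH the oxytocin, vasopressin, CRH and TRH neurons, LHA the orexin and melanin-concentrating hormone neurons, and VMH neurons of satiety and social behaviour. Nkx2-1 is a homeobox factor that specifies the ventral part of the developing hypothalamus.

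The depth of the hypothalamic libraries was 14201960 to 19689276 estimated counts, within the 13409041 to 20647884 of the other adult libraries. Mitochondrial transcripts took 5.55% to 10.3% of TPM (a level corrected for transcript length and scaled to the same total in each library) in the hypothalamus and 5.70% to 39.6% elsewhere. The highest share was that of VTA replicate 1, and its removal is among the alternatives below. The labelled tissue was checked with Nkx2-1. Its level was 24.7, 42.1 and 43.4 TPM in the ARH libraries, 20.1 and 24.3 in VMH, 8.06 to 12.9 in DMH, 7.03 to 10.9 in LHA, and 2.48 and 1.08 in PVH. In the other 43 libraries the median was 0 TPM and the highest values were in ACB, with 5.92, 2.68 and 2.68 TPM, so PVH overlapped with ACB while the other 12 hypothalamic libraries lay above all others. The difference of the 5 region means from the 13 was 4.05 on the log2(TPM + 0.5) scale. Of the 8568 ways to pick 5 of the 18 regions, enumerated in a two-sided exact permutation test, the p was 0.000233. The Hox genes, which mark the hindbrain, summed to 0.584 to 1.28 TPM in the 5 hypothalamic regions against up to 362 TPM in DVC, and 6 of their 21 members were at 0 in all 14 libraries.

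To ask which genes set the hypothalamus apart, the mean of its 5 regions was compared with the mean of the 13 others for 17955 genes with a mean of at least 1 TPM in a region. Each region counted as a unit, differences were taken on the log2(TPM + 0.5) scale, and a gene was called at a limma adjusted p under 0.05 and a difference above 1 (2-fold). The hypothalamus had more genes called higher than lower, with 395 genes (2.2% of those tested) higher and 55 (0.306%) lower. The genes furthest from the diagonal were peptide precursors, among them Pmch, Oxt, Hcrt and Avp. Of all calls, 87.8% were higher. After centring each library on its median, 248 genes were higher and 93 lower, so 72.7% were higher, since the median gene of the hypothalamus stood 0.13 (log2) above that of the other regions. With libraries in place of regions as units, the 395 and 55 genes were all called again, among 764 higher (4.26%) and 303 lower (1.69%). The median difference over all genes was 0.08.

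**Figure D1:**
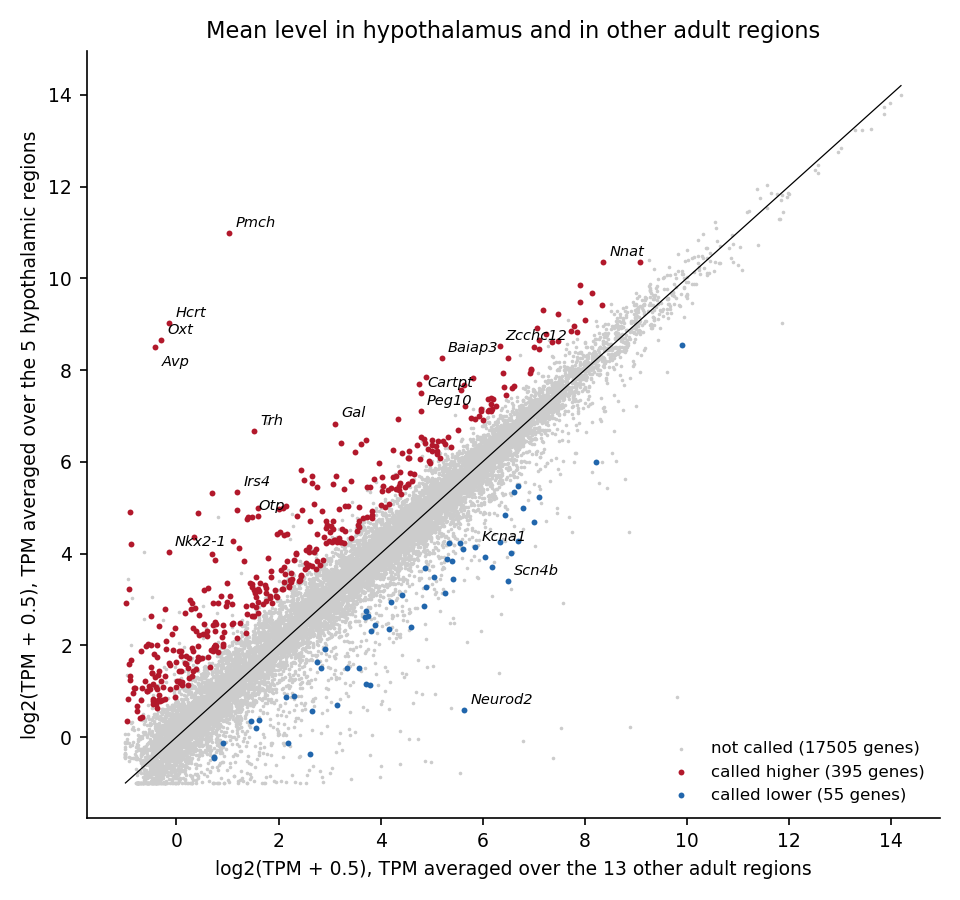
Level of each of the 17955 genes tested, as log2(TPM + 0.5) of the TPM averaged over the 13 other adult regions (horizontal) and over the 5 hypothalamic regions (vertical). Red points are the 395 genes called higher, blue points the 55 called lower, and the line marks equal levels. Pmch, Oxt, Avp and Hcrt lie furthest above the line, and Neurod2 far below it.

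A stricter view counted genes whose 14 hypothalamic libraries all lay above all 43 other adult libraries. There were 19 such genes (0.106% of those tested), and 14 of them passed the call rule above. They included peptide precursors, transcription factors, a signalling adaptor and surface proteins. A single gene, the membrane protein gene Mfap3l, had all 14 libraries below all 43 (0.00557%), with a difference of -0.84 that did not pass the fold limit.

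Among the peptides, Pmch encodes the precursor of melanin-concentrating hormone, which promotes feeding. It stood at 3871, 4565 and 5180 TPM in the LHA libraries, 3454 and 3595 in VMH, 358 to 1880 in DMH, 661, 830 and 740 in ARH, and 95.8 and 16.3 in PVH, against at most 6.10 TPM in any other adult library. The VMH libraries were thus nearly as high as LHA, and even the lower PVH library was above all others. The log2 difference was 9.07 ± 0.75 (SE), with an adjusted p of 4.47e-06. Trh, the precursor of the releasing hormone that drives thyrotropin, ranged from 18.3 to 281 TPM with a median of 53.5, against 0 to 15.1 elsewhere. Its highest libraries were those of VMH (281 and 229 TPM) and then PVH (87.0 and 169), and the difference was 5.46 ± 0.69 (adjusted p = 0.000337).

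Irs4 encodes a substrate of the insulin and IGF-1 receptors. Its level was 95.4, 105 and 119 TPM in ARH, 31.8 and 46.9 in VMH, 17.0 to 29.9 in DMH, 18.04 and 21.03 in PVH and 9.45, 11.1 and 13.5 in LHA. The highest other library had 8.67 TPM and the median of the others was 0.403, so ARH stood apart and LHA lay just above the others. The difference was 4.45 ± 0.65 (adjusted p = 0.000773).

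These 3 genes had the largest differences of those without overlap, and the bases before their start sites are shown so that the letters a homeobox factor such as Nkx2-1 is known to prefer can be looked up. The sequences are from RefSeq on GRCm38.p6, printed from the far end towards the gene, without bases inside the annotated gene. Capitals mark CAAGTG or CTCAAG on either strand (CACTTG and CTTGAG on the other). CAAGTG also has the form of an E-box, CANNTG.
Pmch (chr10:88090822-88091071, + strand): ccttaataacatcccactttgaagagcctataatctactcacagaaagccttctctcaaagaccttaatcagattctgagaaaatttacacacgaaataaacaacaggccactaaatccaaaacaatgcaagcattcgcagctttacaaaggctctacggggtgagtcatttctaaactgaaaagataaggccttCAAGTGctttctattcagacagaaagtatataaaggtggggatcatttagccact
Trh (chr6:92244651-92244900, - strand): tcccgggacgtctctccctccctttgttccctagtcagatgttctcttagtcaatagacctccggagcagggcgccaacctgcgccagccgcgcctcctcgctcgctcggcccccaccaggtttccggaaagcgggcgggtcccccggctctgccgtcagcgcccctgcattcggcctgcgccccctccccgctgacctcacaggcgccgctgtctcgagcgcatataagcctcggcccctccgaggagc
Irs4 (chrX:141725264-141725467, - strand): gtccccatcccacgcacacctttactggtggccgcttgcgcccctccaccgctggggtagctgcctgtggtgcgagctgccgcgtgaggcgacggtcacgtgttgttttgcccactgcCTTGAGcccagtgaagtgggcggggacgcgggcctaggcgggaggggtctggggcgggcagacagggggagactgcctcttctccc
The Pmch window held 1 match and the Irs4 window 1, while the Trh window held 0. Over the 250 bases before each start, 20.5% of the 15316 windows of the genes tested held either form, and 22.3% of the 403 windows of the genes called higher. A match describes letters only and marks no bound site.

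The transcription factors among the genes without overlap were Fezf1 and Sim1. Fezf1, a zinc finger factor known from VMH neurons, was at 62.0 and 28.7 TPM in VMH, 33.0, 39.4 and 34.1 in ARH, 6.20 and 7.95 in PVH, 0.818 to 1.55 in LHA and 0.384 to 0.681 in DMH, against at most 0.176 elsewhere. Sim1, a factor that PVH neurons require to form, spanned 0.875 to 5.79 TPM with a median of 2.17, against a highest value of 0.852 in the other libraries. Both were close to 0 outside the hypothalamus, with a median of 0 TPM over the 43 libraries. The differences were 3.72 ± 0.62 (adjusted p = 0.00185) for Fezf1 and 2.41 ± 0.21 (adjusted p = 6.14e-06) for Sim1.

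The others encode proteins of secretion, membranes and signalling. Sytl4, a partner of RAB27 on secretory granules, had 4.27 to 60.3 TPM with a median of 16.5, against at most 3.86 elsewhere (difference 4.05 ± 0.43). Igsf1, a pituitary and hypothalamic glycoprotein linked to central hypothyroidism, had 51.01 to 149.8 TPM, and the highest other library reached 48.4 (3.41 ± 0.65). Both separated by narrow margins at their lowest library, which was from LHA for Sytl4 and from PVH for Igsf1. Tmie, known from the transduction complex of inner ear hair cells, had 17.9 to 38.9 TPM against at most 16.5 (2.26 ± 0.35). The heparan sulphate proteoglycan Gpc3 had 10.2 to 46.2 TPM against at most 7.93 (2.25 ± 0.32), and the 3 ARH libraries had 42.5 to 46.2 TPM. Zap70, a tyrosine kinase of T cell receptor signalling, was highest in PVH and DMH and had 3.55 to 10.2 TPM against at most 3.42 (1.94 ± 0.28). Cdhr2, a cadherin of the brush border, Pgap1, an enzyme of GPI anchor remodelling, and 2310022B05Rik were also in the group. Their differences were 1.94, 1.33 and 1.30. Every gene of this paragraph had an adjusted p of at most 0.00459.

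**Figure D2:**
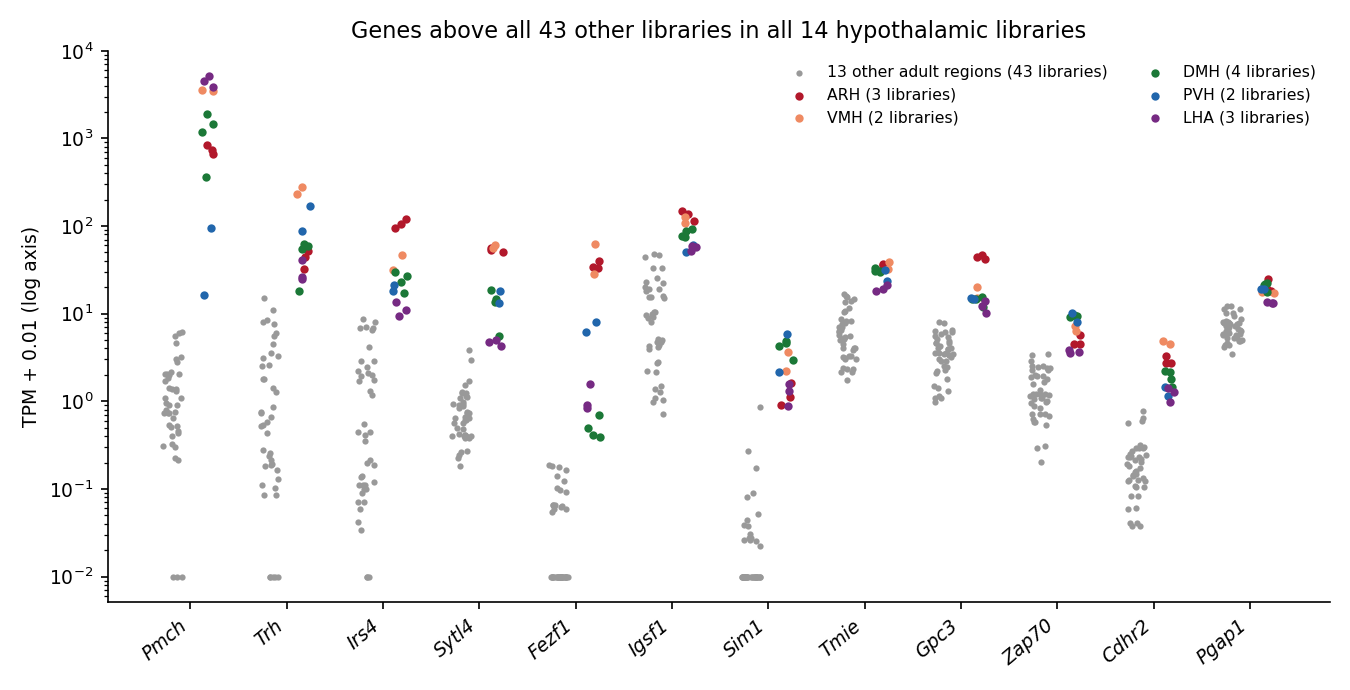
TPM + 0.01 on a log axis in each adult library for 12 genes that were called higher and whose 14 hypothalamic libraries all lay above the 43 others. Grey points are the libraries of the 13 other regions and coloured points those of the 5 hypothalamic regions. The gap between the grey and coloured points is widest for Pmch (16.3 against 6.10 TPM at the nearest libraries, with medians of 1317 and 0.905), and LHA or PVH libraries lie nearest to the grey points for most genes.

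The gene lists here and below were chosen with earlier results of these data known, so their shares are given as descriptions. Of the 36 transcription factors listed for hypothalamic development and identity, 18 were called higher and 0 lower, where 2.2% of all genes were higher. Their median difference was 1.84, beside 0.08 over all genes, and 14 of the 18 calls remained after median centring. Isl1, a LIM homeobox factor of ARH neurons, had the largest difference of the list (4.495 ± 0.686, adjusted p = 0.00115). It stood at 51 to 60.1 TPM in ARH and at 7.78 to 37.8 in the other 4 regions, but ACB, at 20.3 TPM on average, overlapped with it. Six3, a forebrain patterning factor, was likewise as high in ACB (53.1 TPM) as in ARH (53.01), and its difference was 4.34 ± 0.89. Otp, required for PVH and ARH peptide neurons, averaged 61.2 TPM in ARH, 27.1 in VMH, 23.3 in PVH, 17.2 in DMH and 8.54 in LHA, and NTS reached 9.57 (3.95 ± 0.69). The list thus held factors shared with the striatum or hindbrain as well as factors near 0 elsewhere.

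Several members were at or near 0 TPM in most other regions. Bsx, which controls AgRP and NPY expression, averaged 22.0 TPM in ARH, 10.7 in DMH, 9.59 in VMH, 2.22 in LHA and 0.0786 in PVH, with at most 0.165 in any other library. Nkx2-4, a close relative of Nkx2-1, averaged 23.2 TPM in ARH and was listed at 0 in both PVH libraries. Prdm12, a regulator of Pomc neurons, stood at 0.402 to 3.74 TPM in the 14 libraries against at most 0.931 elsewhere, and it was not called among the nuclei (adjusted p = 0.266). Nr5a1, the SF-1 factor that defines VMH neurons, averaged 33.6 TPM in VMH and 18.3 in ARH but at most 0.190 in the other 3 nuclei, and Rax, a tanycyte factor, averaged 16.8 TPM in ARH and at most 0.641 in the rest. Neither passed with regions as units (adjusted p = 0.0645 and 0.168). Dlx1 (difference 4.13, adjusted p = 0.0567) was high in all 5 nuclei and in FRP, at 96.5 TPM. Arnt2, a dimer partner of SIM1, was the most abundant member at 102 TPM but did not pass (83.9 TPM elsewhere).

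**Figure D3:**
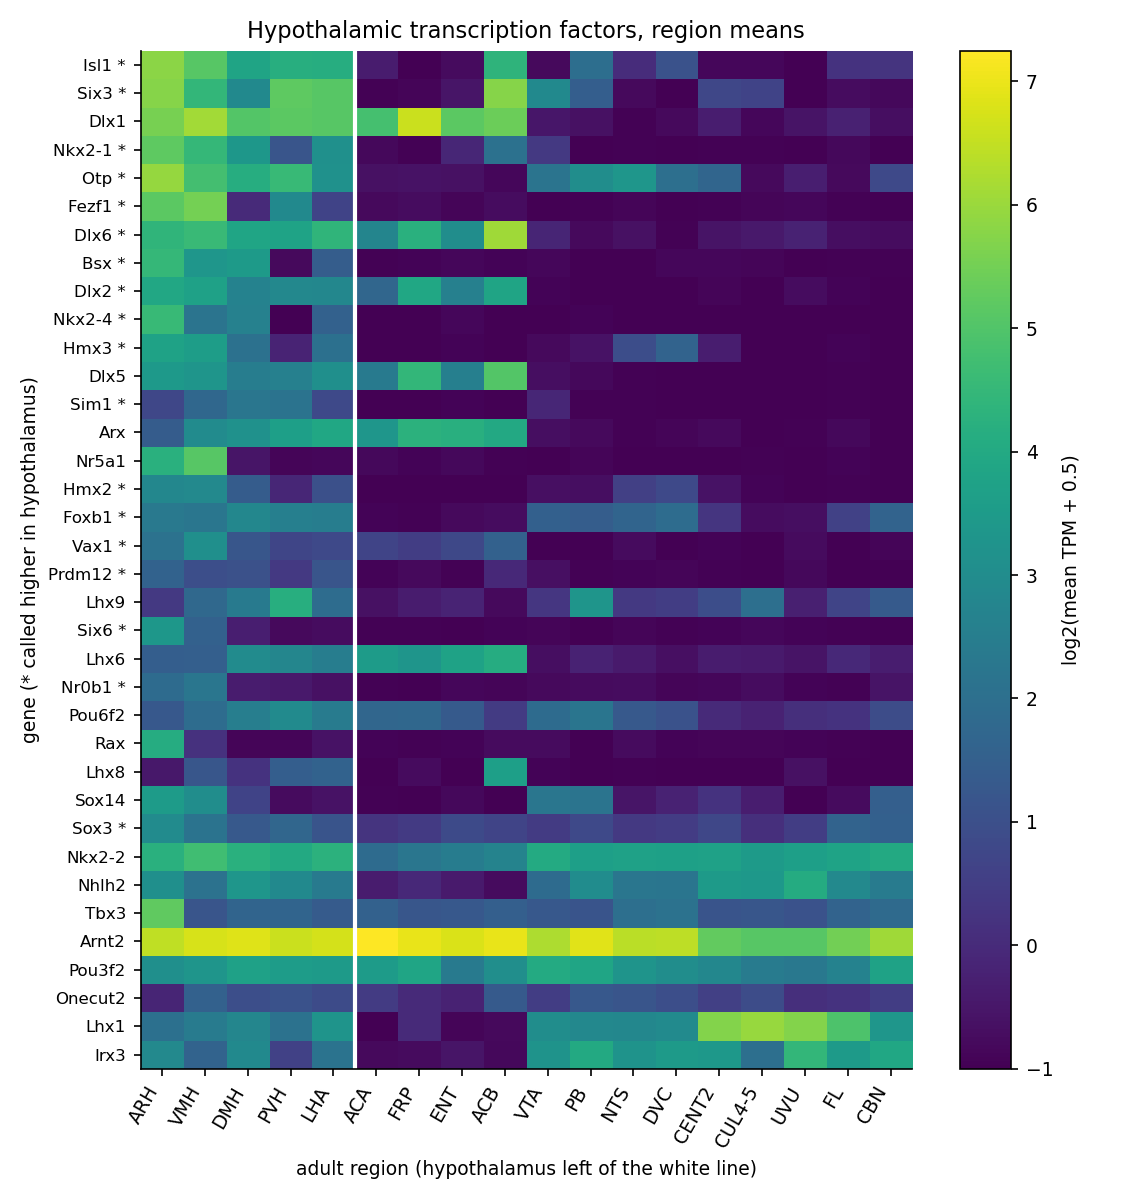
Region means of the 36 listed transcription factors in the 18 adult regions, coloured by log2(mean TPM + 0.5) and ordered by the difference between hypothalamus and other regions. The 5 hypothalamic regions are left of the white line, and asterisks mark the 18 genes called higher. Isl1 and Six3 are also bright in ACB, and Bsx, Nkx2-4, Fezf1 and Sim1 are dark in all 13 other regions.

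Of the 49 neuropeptide genes listed, 46 passed the filter on low values. Of these, 13 (28.3%) were called higher and 0 lower, where 2.2% of all genes were higher and 0.306% lower. Their median difference was 0.98, and 11 were higher after median centring, where 248 of all 17955 genes were. Oxt, the oxytocin precursor, was at 2075 and 454 TPM in PVH, 113 to 615 in ARH, 599 and 52.5 in VMH, 37.1 to 41.9 in LHA and 1.11 to 29.6 in DMH. Elsewhere its highest value was 2.67 TPM, above the lowest DMH library, so the groups overlapped by that library, and the difference was 7.29 ± 0.67 (adjusted p = 9.25e-06). Avp, the vasopressin precursor, showed the same breadth, from 1904 TPM in an ARH library to 0 in a DMH library (6.87 ± 0.81, adjusted p = 0.00018). Hcrt, the orexin precursor, was at 915, 1534 and 1890 TPM in LHA, 659 and 939 in VMH, 120 to 451 in DMH, 13.2 to 47.7 in ARH and 0.784 and 0.276 in PVH, where it overlapped with the other regions (6.90 ± 1.05). Peptides of 1 nucleus were therefore found in neighbouring nuclei at large levels, including LHA peptides in VMH and PVH peptides in ARH. The share of neighbouring tissue in each punch was not tested.

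The remaining called peptide genes were Gal, Cartpt, Ghrh, Tac2, Npvf, Pnoc, Nucb2 and Nms. Ghrh, which drives growth hormone release, averaged 121 TPM in ARH and 7.49 to 34.5 in the other nuclei, and all 5 means were above the highest other region, PB at 4.71. Npvf, the RFamide precursor of DMH neurons, averaged 91.1 TPM in VMH, 38.3 in DMH and 16.1 in ARH, with at most 0.347 in any other library. Gal averaged 280 TPM in VMH and 30.5 in LHA, and DVC reached 39.2. Pnoc, the nociceptin precursor, was the most even, at 17.1 to 32.4 TPM over the 14 libraries against at most 21.2 elsewhere. Pomc did not pass with regions as units (2.15, adjusted p = 0.0934): its mean was 551 TPM in ARH and 3.50 to 11.5 in the other 4 nuclei, where the highest other region had 4.94. Sst (510 TPM against 353) and Cck (146 against 330.5) were the most abundant peptide genes not called, and ENT and ACA respectively exceeded the hypothalamic mean. Ucn, which encodes urocortin, was listed at 0 in all 14 hypothalamic libraries and at 15.8 TPM in VTA.

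Receptors for peptides and peptide hormones were listed as 50 genes, of which 49 passed the filter. Of these, 17 (34.7%) were called higher and 1 (2.04%) lower, against 2.2% and 0.306% of all genes. The median difference was 1.34, and 14 were higher after median centring. The largest difference was that of Calcr, the receptor for calcitonin and, with RAMP proteins, amylin. Its 14 libraries ran from 4.61 (LHA) to 30.3 TPM (ARH) with a median of 15.9, and the others from 0 to 16.5 with a median of 0.354, the highest being PB, so the groups overlapped (3.51 ± 0.61, adjusted p = 0.00243). Gpr50, the melatonin-related orphan receptor also known from tanycytes, averaged 62.1 TPM in ARH, 26.3 in VMH, 9.37 in DMH, and 1.15 and 1.63 in PVH and LHA, which lay below PB at 4.73 (3.16 ± 0.66). Cckar, which binds cholecystokinin, had 1.62 to 9.93 TPM against a median of 0.213 elsewhere and was not called among the nuclei (2.56 ± 0.43, adjusted p among nuclei = 0.216). The feeding receptors Npy2r (2.48), Mc3r (2.19), Glp1r (1.98) and Ghsr (1.65) and the receptor Brs3 (2.27) were called higher, all with their highest mean in ARH. Galr1, Crhr2 and Adcyap1r1 were also higher, with their highest mean in VMH. Mc4r and Lepr did not pass: their means were 1.97 against 1.60 TPM and 3.76 against 2.32 TPM, with Lepr at 7.69 in ARH. Crhr1, the main CRH receptor, was the member called lower, at 3.21 to 12.1 TPM over the 14 libraries against a median of 25.8 elsewhere (-1.77 ± 0.46, adjusted p = 0.029).

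Genes of prohormone processing and dense-core vesicles, the machinery that makes and releases peptides, were called higher in 4 of 23 cases and lower in 0. The share called higher was 17.4%, against 2.2% of all genes, and the median difference was 0.57. Baiap3, a C2 domain protein of dense-core vesicle traffic, was at 411 to 535 TPM in ARH, 371 and 483 in VMH, 231 to 335 in DMH, 136 and 233 in PVH and 115 to 179 in LHA, with a median of 15.7 and a highest value of 149 in the others (3.93 ± 0.75, adjusted p = 0.00398). Only 3 libraries, of LHA and PVH, reached down into the other regions. Resp18, an endocrine granule protein, had a median of 864 TPM against 143 (2.37 ± 0.51), and the granin Scg2 a median of 834 against 217 (1.72 ± 0.35). Pcsk1, a prohormone convertase, passed by a small margin (1.01, adjusted p = 0.0484), lost the call in 20 of the 57 removals of a library and did not pass after median centring. Cpe, the carboxypeptidase of the same pathway and the most abundant member at 1837 TPM, did not pass (0.66, adjusted p = 0.0794), nor did Pcsk1n (0.90, under the fold limit). Scg3 and Cadps, other members of this machinery, differed by -0.17 and 0.06.

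Imprinted genes, which are transcribed from the copy of 1 parent, were among the lists with the most calls. This list too was chosen with earlier results of these data known. Of the 39 listed, 33 were in the table and 32 passed the filter. Of these, 15 (46.9%) were called higher and 0 lower, against 2.2% and 0.306% of all genes. All 15 were higher after median centring too. The median difference was 1.01. Calcr was followed by Magel2, of the Prader-Willi region, at 9.32 to 55.5 TPM with a median of 20.04 against a median of 1.35 and a highest value of 9.45 (3.50 ± 0.58, adjusted p = 0.00177), and 13 of its 14 libraries were above all others. Asb4, which encodes an ankyrin and SOCS box protein, averaged 82.1 TPM in ARH and 7.86 to 32.3 in the other nuclei, with PB at 12.1 (3.48 ± 0.62). Peg10, a gene of retrotransposon origin, averaged 250.4 TPM in ARH and 69.5 in LHA, with PB at 91.9 (2.73 ± 0.58). The others were Zim1, Nnat, Zdbf2, Usp29, Grb10, Ndn, Plagl1, Peg3, Impact, Nap1l5 and Rtl1. Ndn, the necdin gene beside Magel2, had a median of 366 TPM against 110.4. Nap1l5 was even over the nuclei, at 1073 to 1441 TPM as region means (1.39, adjusted p = 0.0048). The most abundant members not called were Gnas (2198 against 1523 TPM) and Snrpn (679 against 629).

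Lists of transmitter, of leptin and insulin, and of steroid genes had 1 or 2 calls each. Their higher shares were 4.55% for transmitter identity, 4.76% for leptin and insulin signalling and 16.7% for steroid genes, against 2.2% of all genes. The steroid share was thus close to the 17.4% of the prohormone and dense-core vesicle list. Of 22 genes of transmitter identity, Gad2, which encodes a GABA-synthesizing enzyme, was called higher (147 ± 29.2 TPM, SD over 5 regions, against 76.1 ± 50.4, SD over 13) and 0 were lower, with a median of 0.12. After median centring 0 were called. Gad1, the other GABA-synthesizing enzyme, was at 326.5 against 353 TPM. The vesicular glutamate transporter Slc17a6 had a higher mean in the hypothalamus (142 against 55.8 TPM, adjusted p = 0.107) and Slc17a7 a lower one (21.7 against 469, adjusted p = 0.0709), but neither passed. Hdc, the histamine-synthesizing enzyme, averaged 79.1 TPM in ARH (2.36, adjusted p = 0.0609). Of 21 genes of leptin and insulin signalling, Irs4 alone was called, and the median was 0.09. Ntrk2, the BDNF receptor, had an adjusted p of 0.00296 but a difference of 0.77, and Akt1 was at 128 against 131 TPM. Of 12 genes of steroid response and synthesis, 2 were called higher and 0 lower, with a median of 0.62. One of them was Esr1, the oestrogen receptor alpha. Esr1 averaged 12.3 TPM in ARH and 2.37 to 4.15 in the other nuclei (1.40, adjusted p = 0.0497, lost in 29 of the 57 removals of a library). The glucocorticoid receptor Nr3c1 was at 39.5 against 33.2 TPM and was not called.

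**Figure D4:**
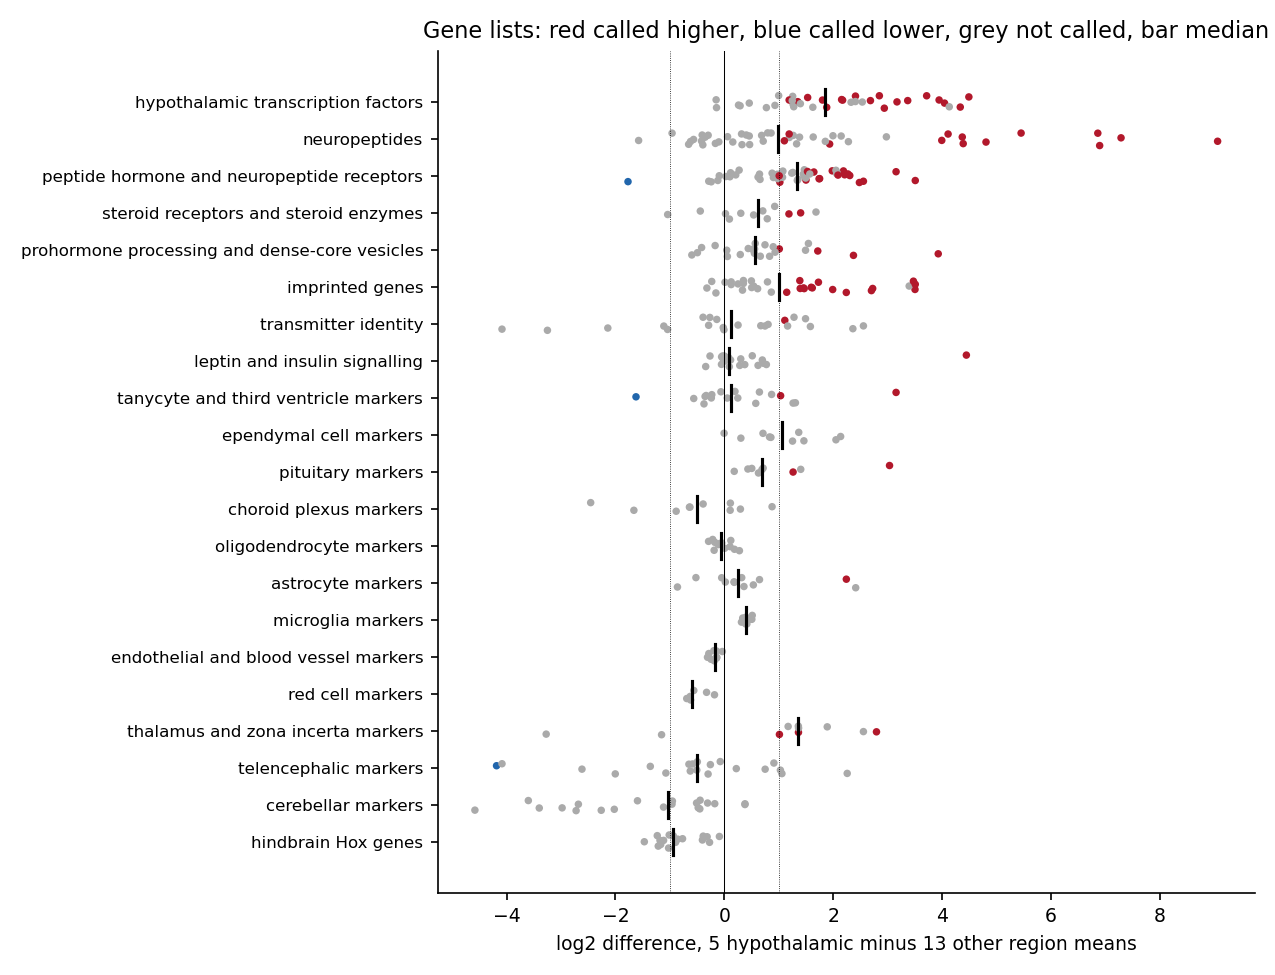
Difference between the 5 hypothalamic and the 13 other region means on the log2(TPM + 0.5) scale for each member of the gene lists, with red for called higher, blue for called lower, grey for not called, a black bar for the list median and dotted lines at differences of 1 and -1. The transcription factor list has the highest median (1.84), the imprinted genes have 15 calls all to the right, and the cerebellar and Hox lists lie mostly left of 0.

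How evenly the 5 nuclei shared these differences was read from an F test among the nuclei, which called 2500 of all genes (13.9%). Of the 395 higher genes, 244 (61.8%) differed among the nuclei and 151 did not. Of the 395, 205 had their highest nucleus in ARH, 118 in VMH, 42 in PVH, 22 in DMH and 8 in LHA, and 240 had their lowest in LHA. The median difference of the 395 genes from the other regions was 2.00 for ARH, 1.86 for VMH, 1.56 for DMH, 1.32 for PVH and 1.06 for LHA. These values describe genes chosen on the mean of the same 5 regions. The myelin genes moved along with this order: the sum of 12 oligodendrocyte markers was 1444 TPM in ARH and 12860 in LHA, and its part in the order was not tested.

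At the restricted end, Six6, a homeobox factor of the eye and pituitary axis, had 77.0% of its summed hypothalamic TPM in ARH, at 7.48 to 12.7 TPM in the 3 ARH libraries against 0.0278 to 2.75 in the other 11. Apoc3, an apolipoprotein gene, had 73.7% in ARH (19.1 to 26.2 TPM), and the keratin gene Krt90 had 66.7% in ARH (10.7 to 12.6 TPM). Nkx2-4 had 65.8% in ARH. Tnnt1, the slow troponin T gene, differed from these, with 218 and 143 TPM in PVH, 33.3 to 114 in DMH, 12.9 to 29.2 in LHA, and 2.23 to 8.76 in ARH and VMH. Its 2 highest nuclei were also highest in Tcf7l2, a thalamic factor, at 221 and 234 TPM in PVH and 98.7 to 168 in DMH against 15.4 to 43.8 in the other 3. The thalamic factor Gbx2 likewise averaged 44.1 TPM in PVH and 9.57 in DMH. Of the 10 markers listed for thalamus and zona incerta, 3 were higher with regions as units, where 2.2% of all genes were. Among the nuclei 8 of them differed, against 13.9% of all genes. With libraries as units 8 were higher and 2 lower, against 4.26% and 1.69% of all genes, and the list median was 1.36. The summed level of the 10 ran from 195 TPM in ARH to 1020 in PVH, with 1328 TPM in CUL4-5, the highest of the other regions. The sum differed by -0.52 from the other regions and the mean over members by 0.91, and neither passed the exact permutation test (adjusted p = 0.382 and 0.217). The part of neighbouring thalamus in the values of PVH and DMH was not tested.

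At the even end were genes with close to the same level in all 5 nuclei. Cgref1, a secreted EF-hand protein, averaged 42.5 to 49.9 TPM in the nuclei against 22.8 ± 10.4 (SD, 13 regions). Cib2, a calcium-binding protein known from hair cells, averaged 63.4 to 73.5 TPM but DVC reached 67.2. Btbd11 averaged 37.4 to 47.8 TPM, and 11 of its 14 libraries lay above all others. Along with Nap1l5 and 2310022B05Rik these were the most even of the genes called higher at a mean of at least 10 TPM. Their differences were small, from 1.03 to 1.39, and Cib2, Cgref1 and Btbd11 did not pass after median centring.

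For the 395 higher genes the highest other region was PB in 181 cases, ACB in 58, DVC in 34 and ENT in 26. By area, the median difference of the 395 was 1.95 from the cerebellum, 1.66 from the cortex, 1.38 from VTA, 1.35 from ACB and 1.07 from the hindbrain nuclei. These values describe genes chosen on the mean of the same 13 regions, 5 of them cerebellar. Over all genes tested, the medians were -0.01, 0.15, 0.50, 0.05 and 0.10 in the same order. PB was the nearest for Calcr, Irs4, Igsf1, Baiap3, Resp18, Scg2, Magel2, Asb4 and Peg10 among the genes above. All 5 hypothalamic region means exceeded all 13 others for 189 genes (1.05% of those tested), 99 of them called.

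Fewer genes were lower in the hypothalamus, and no called gene separated in every library. Neurod2, a neurogenic factor of excitatory neurons in cortex and cerebellum, had the most negative difference of the 55, at 0.136 to 3.07 TPM over the 14 libraries against 0.295 to 140 with a median of 49.5 (-4.19 ± 0.95, adjusted p = 0.0132). Dio2, the enzyme that activates thyroid hormone and is known from tanycytes and astrocytes, was lower too, at 7.01 to 11.7 TPM in ARH and 1.32 to 5.97 in the other nuclei against 4.97 to 24.8 elsewhere (-1.62 ± 0.30, adjusted p = 0.00329). Further genes, picked after their values were seen, were Scn4b (10.1 against 89.6 TPM), a sodium channel subunit, Kcna1 (17.1 against 57.2), a potassium channel, Gpd1 (15.6 against 94.0), a glycerol phosphate dehydrogenase, and Cyp26b1 (1.70 against 13.4), which degrades retinoic acid. Their differences were -3.08, -1.84, -2.59 and -2.72. Of 20 telencephalic markers Neurod2 was the one called lower, and of 20 cerebellar markers and 17 Hox genes tested 0 were called, with medians of -0.50, -1.04 and -0.94. With libraries as units 6, 10 and 8 of these lists were lower and 3, 0 and 0 higher, in the same order. Over all genes 1.69% were lower and 4.26% higher with libraries as units.

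Markers of glia, vessels and neighbouring tissue were read in the same way. With regions as units, no oligodendrocyte, microglia, endothelial, ependymal, choroid plexus or red cell marker was called. With libraries as units, 5 of the 10 ependymal markers were higher and 0 lower, with a list median of 1.06, and 2 choroid plexus markers were lower. Over all genes 4.26% were higher and 1.69% lower with libraries as units. The sums of these 6 lists differed by -0.74 to 0.63 (log2), none of them past an exact permutation test over regions (adjusted p of at least 0.382). The 0.63 was that of the ependymal sum, which differed by 1.23 without the 5 cerebellar regions (exact permutation adjusted p = 0.096), and its mean over members differed by 1.10. The -0.74 was that of the choroid plexus sum, which was 0.81 without the cerebellar regions (exact permutation adjusted p = 0.563), so its direction rested on them. Of the 12 astrocyte markers, 1 (8.33%) was higher and 0 lower, where 2.2% of all genes were higher. It was Itih3, which encodes a hyaluronan-binding protein (226 against 55.9 TPM). Agt, angiotensinogen, was not called (319 against 106 TPM, adjusted p = 0.111). Slc1a3 was at 278 against 276 TPM. Of the 9 pituitary markers tested, 2 (22.2%) were higher and 0 lower with regions as units, where 2.2% of all genes were higher. The pituitary list had the largest difference in its sum, 5.21 TPM in PVH to 122 in ARH against at most 16.8 elsewhere (2.51, exact p = 0.0056, adjusted p = 0.0728). Cga, the subunit shared by the pituitary glycoprotein hormones, was at 67.3, 93.7 and 75.8 TPM in the ARH libraries and at most 0.471 in the other 11, and the part of pituitary tissue in the ARH values was not tested. The 18 tanycyte markers were mixed: Gpr50 and Deptor were higher (11.1%), Dio2 was lower (5.56%) and the median was 0.13. Over all genes 2.2% were higher and 0.306% lower.

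The X chromosome held 3.78% of the genes tested with a known position and 15.5% of the higher ones, a pattern noticed after the values were seen and so given as a description. Of 656 X-linked genes tested, 60 (9.15%) were higher, against 326 of 16646 autosomal genes (1.96%), and single autosomes ranged from 0.872% to 2.74%. Of these 60 genes, 40 had their highest nucleus in ARH and 16 in VMH, beside 205 and 118 of all 395 higher genes. They included Irs4, Sytl4, Igsf1, Gpc3, Gpr50 and Brs3, described above, and the GABA-A receptor subunit genes Gabrq and Gabre. Gabrq averaged 81.2 TPM in ARH, 64.6 in VMH, 42.8 in DMH, 23.5 in PVH and 19.2 in LHA, and PB reached 36.3 (3.81 ± 0.74, adjusted p = 0.0048). Gabre averaged 64.9 TPM in ARH, 30.8 in VMH, 17.0 in DMH, 11.2 in PVH and 8.28 in LHA, and PB reached 11.7 (3.71 ± 0.65, adjusted p = 0.00236). Both had the nuclei in the order of the medians above and overlapped with PB.

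**Figure D5:**
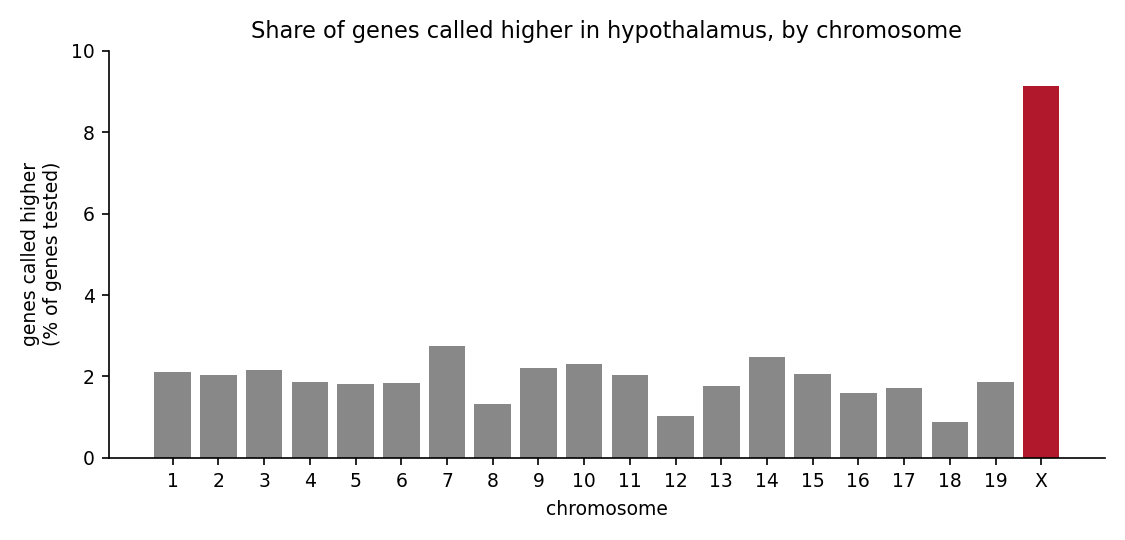
Share of the genes tested on each chromosome that were called higher in the hypothalamus with regions as units, in percent, for the 19 autosomes (grey) and the X chromosome (red). The X bar stands at 9.15% and the autosomes between 0.872% and 2.74%.

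Calls also depended on how the other regions were grouped. With libraries as units, weighing 5 other areas (cortex, ACB, VTA, hindbrain nuclei and cerebellum) the same gave 705 higher and 193 lower genes. With each region weighing the same there were 764 and 303. With regions as units, the other regions were averaged to these 5 areas, which also left fewer units. Then 75 genes were higher and 4 lower, and the parts of weighing and of fewer units were not tested. Of the 49 named genes called, 30 lost the call with regions as units. Pmch and Irs4 kept it, with differences of 8.82 and 4.02, while Nkx2-1 (3.59, adjusted p = 0.0614) and Fezf1 (3.71, adjusted p = 0.101) lost it. The call was also lost for, among others, Hcrt, Isl1, Six3, Six6, Nkx2-4, Esr1, Gpr50, Npy2r, Gad2, Baiap3, Resp18, Scg2, Pcsk1, Asb4, Peg10, Nap1l5, Apoc3, Krt90, Tnnt1, Tcf7l2, Cgref1, Cib2, Btbd11 and Itih3 among the higher genes and for Neurod2 and Dio2 among the lower ones. Leaving out ARH left 214 higher genes and leaving out VMH 218.

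The punches were collected in batches, and 4 batches held both hypothalamic and other regions. Within batch 1, which had DMH, PVH and LHA, 30 genes were higher and 0 lower. Within batch 2, with ARH, VMH, DMH and LHA, 141 were higher and 18 lower. Batch 3, with ARH, VMH and DMH, gave 532 and 60, and batch 4, with ARH, DMH, PVH and LHA, gave 173 and 18. The batches thus differed in which nuclei they held as well as in number of libraries. Within the same batches Nkx2-1 differed by 3.37, 4.39, 5.01 and 3.84, and it passed in all but batch 1 (limma adjusted p = 0.0512). With the batch as a term and libraries as units, 760 genes were higher and 304 lower.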

How the data were processed

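RNA from punches was made into strand-specific mRNA libraries (KAPA), read as single reads of 33 cycles. The authors quantified them with kallisto on GRCm38 cDNA and deposited gene-level TPM values, which were the measure of every comparison. They also deposited estimated counts per transcript. These were matched to genes through mouse GENCODE release M21 (98.8% of 109282 transcripts), summed per gene, rounded to whole numbers and used for depth, edgeR and DESeq2. Deposited transcript TPM values served only to check this match: 365 genes differed by over 1% from the gene value. Whether kallisto was run with a strand setting is not given in the sources used here, so overlapping antisense genes cannot be told apart. CASAVA 1.8.2 is named in the submitters' processing notes. Depth was 14201960 to 19689276 estimated counts in hypothalamic libraries.

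A gene was tested at a region mean of at least 1 TPM in at least 1 of 18 adult regions. Values were log2(TPM + 0.5), libraries were averaged per region, and the 5 hypothalamic regions were compared with the 13 others by limma with Benjamini-Hochberg adjustment (adjusted p under 0.05, difference above 1). Libraries as units used region means as terms, and the nuclei were compared by limma's F test. Nkx2-1 and marker sums used two-sided exact permutation tests over regions. The study's sample table gives collection batches by region. Each adult library was assigned to 1 of them through the serial number in its description, since the serials fall into 5 runs whose regions equal those of batches 1 to 5. A batch term and within-batch comparisons were added after seeing the data, and batch 5 held 2 cerebellar libraries only. Replicate numbers were checked for pairing: the median correlation of deviations was 0.01 over 436 same-numbered pairs. Of these, 6.42% were above 0.1, against 3.2% of 1095 differently numbered pairs. The numbers were not used as pairs in the main comparisons. For 357 pairs of the same batch the median was 0.02, with 6.72% above 0.1, against 3.32% of 1174 pairs of different batches.

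Named genes were Nkx2-1, the called genes above or below all other libraries, the 4 called members with the largest difference and the 2 most abundant uncalled members of each biology list, the 2 largest differences and 2 most abundant members of each marker list, the 5 most restricted and 5 most even higher genes, and list members near 0 or differing among nuclei. The comparison, lists and rule were chosen with earlier results of these data known. Alternatives were other pseudocounts, filters, centring, area weights, edgeR, DESeq2, a replicate block and leaving out each library or region. On simulated data the regions comparison called 99 of 100 genes changed by 1.5 (log2) and 1 of 17755 unchanged genes. There, every gene had the same spread between regions, and the regions varied independently. These rates therefore do not carry over to genes with a wider spread or to regions that resemble each other. R 4.3.3, limma 3.58.1, edgeR 4.0.16, DESeq2 1.42.0, Python 3.11.15, NumPy 2.4.6, pandas 2.3.3 and matplotlib 3.10.9 were used. Promoter sequences and windows are from RefSeq on GRCm38.p6. Some genes within the rule are not reported here.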

Additional observations from a re-analysis of the deposited data

Results flagged for a closer look

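DMH was the only hypothalamic region with 4 libraries, and in it a library stood apart from the other 3 for 6 of the 101 genes tested. The replicate numbers are those of the sample descriptions, as the sample titles number DMH differently. DMH replicate 2 was the lowest for Cckar (1.62 TPM), Pgap1 (17.6), Slc1a3 (229) and Trh (18.3) and the highest for Hoxd3 (0.061), and DMH replicate 1 was the highest for Cgref1 (46.8). Chance sets about 1 in 20 groups of libraries apart in this way. In libraries outside the comparisons, Nkx2-1 stood at no less than 71.8 TPM in the 3 libraries of embryonic hypothalamus, above all adult libraries.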

How the results depend on the processing

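Of the 49 named genes called, 42 kept call and direction with each library left out and 19 under every alternative other than the within-batch ones, and 0 reversed under any. With regions as units, higher genes numbered 395. They became 75 with the other regions averaged to 5 areas, which also left fewer units. After median centring they were 248, without ARH 214 and without VMH 218. Lower genes numbered 55 and became 4, 93, 21 and 21 in the same order, and 36 with no filter on low values, 22 without DMH and 26 without the 5 cerebellar regions. With libraries as units, higher genes became 1189 with a pseudocount of 0.1, and lower genes became 193 with areas weighing the same, 615 with DESeq2 and 552 with edgeR. Genes above all others became 29 without ACB, 90 without LHA, 65 without PB and 35 without PVH, and genes below all others 3 without ACB, 2 without DMH, 4 without LHA and 8 without VTA. The 2500 genes differing among nuclei became 1470 without ARH and 1514 without LHA. The causes were not tested. Replicate numbers were not used as pairs in the main comparisons. With a replicate block 758 genes were higher, 308 lower and 2310 differed among nuclei. With a collection batch block, added after seeing the data, these were 760, 304 and 2370, and within batches 1 to 4, with fewer regions each, 30, 141, 532 and 173 genes were higher and 0, 18, 60 and 18 lower by regions. Leaving out each library gave 358 to 421 higher and 42 to 67 lower genes by regions, 742 to 818 and 294 to 316 by libraries, 2308 to 2558 among nuclei, 19 to 24 above all others and 1 to 3 below, the 3 without VTA replicate 1 and 2 without ACB replicate 1. The Nkx2-1 difference ranged from 3.96 to 4.14, and the pituitary marker sum from 2.30 to 2.73, passing without PVH replicate 2 (2.73, exact permutation adjusted p = 0.0243). Among named genes, leaving out a library ended the call of Esr1 in 29 cases, Pcsk1 in 20, Six6 in 6, Cgref1 in 2 (PVH replicate 2, VTA replicate 1), Apoc3 in 1 (VMH replicate 2, difference 1.49), Cib2 in 1 (VTA replicate 1, 1.00) and Tnnt1 in 1 (ARH replicate 2, 2.32), and Dlx1 passed without VMH replicate 1 (4.23). VMH and PVH had 2 libraries each, which limits the precision of their values.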

Other observations

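The higher share of X-linked genes, noticed after the values were seen, was also read under other processing. After median centring 6.10% of X-linked and 1.20% of autosomal genes were higher, and with edgeR on libraries 13.8% and 5.87%. The median difference was 0.20 over X-linked and 0.08 over autosomal genes tested. ARH held the highest of the 18 region means for 21.8% of X-linked and 12.5% of autosomal genes, and VMH for 9.45% and 6.38%. Of the 19 genes above all other libraries, 5 were X-linked. Zcchc12, an X-linked zinc finger gene, averaged 449.5 TPM in ARH and 246 in LHA, and PB reached 235 (2.93, limma adjusted p = 0.0176).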
